A study of Mus musculus with 10 samples.

Results

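The arrays described here are those of 3T3-L1 preadipocytes transfected with a scrambled control siRNA (siC), compared between 24 h and 48 h after transfection. They were defined by their labels alone, with no measured value, though earlier results of these data were known. They number 5 of the 10 arrays of the series: 2 at 24 h and 3 at 48 h. The other 5 arrays were of cells transfected with an siRNA against LSD1 (siLsd1, the product of Kdm1a) at the same times, 2 at 24 h and 3 at 48 h, and entered here for the estimate of spread and for 1 comparison of time changes. All cells received 60 nM siRNA with Metafectene Pro shortly after seeding, had been grown in DMEM with calf serum, and stayed in the same medium until total RNA was extracted, and the labels call them Day 0. The RNA was hybridised to Affymetrix arrays, 1 sample to an array, and each value is the intensity of a probe set, with 1 probe set taken for each gene. Cells of the 24 h arrays were of passage 19 and cells of the 48 h arrays were of passage 21. Time and passage therefore cannot be told apart, and "from 24 h to 48 h" below means both together. No untransfected cells are among the samples used here, so every array carries transfection and an siRNA. Titles call the arrays of a group biological replicates of the 1 cell line. No label says that they came from separate cultures, so the p-values rest on the spread among these arrays, which may be technical.

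The 3T3-L1 line consists of mouse embryonic fibroblasts committed to the fat lineage. Growing preadipocytes divide until they touch, then stop, and differentiate when given a hormone mixture, which the labels of these samples do not name. Cells that leave the cycle stop making the enzymes of DNA replication and the motors and kinases of mitosis, which the E2F factors and the DREAM and MuvB complexes control. Transfected double-stranded RNA can be sensed in the cytosol and in endosomes, and such sensing induces type I interferon and the genes that interferon stimulates.

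The 13644 genes tested are those left after the dimmest 25% by mean were put aside, at a level of 18.4 intensity units. Over all 45037 probe sets the siC 24 h arrays had medians of 35.6 and 36.4 units, the siC 48 h arrays 38.0 to 40.6, and the siLsd1 arrays 35.8 to 39.2. The control arrays were thus slightly brighter at 48 h. With each array centred on its median, 1449 genes were higher and 1784 lower in place of the counts below. The array siLsd1 48 h replicate 3 stood apart from its own group, and counts are given with and without it where it moves them. Over 6943 bright genes, its log2 values differed from those of its replicates with SDs of 0.441 and 0.439, against 0.124 to 0.205 between the siC 48 h arrays and 0.167 between the siC 24 h arrays. A siC 24 h array and a siC 48 h array differed with an SD of 0.442 to 0.484. Kdm1a itself stood at 1559 and 1621 at 24 h and 1596, 1787 and 1775 at 48 h in control cells (log2 change 0.11 ± 0.16 (SE), adjusted p = 0.67). All 12 fibroblast and preadipocyte markers examined were above the dim level, and their summed intensity was 71362 to 73731 at 24 h and 72509 to 73844 at 48 h. Of mature adipocyte markers, Adipoq, Fabp4, Cd36, Lpl and Slc2a4 were above that level and Retn, Lep and Cidec were below it, and the 8 on the array summed to 13171 to 13411 units at 24 h and 14773 to 15452 at 48 h. Of 10 macrophage markers 8 were above the dim level, Cd14 most, and Ptprc and C1qa were below it, with sums of 967 to 981 units at 24 h and 854 to 902 at 48 h. The lower macrophage sum rested on Lyz2, the only one of these called, with means of 306 units at 24 h and 150 at 48 h. Cd14 rose from a mean of 342 to 386 units and Csf1r from 90.7 to 105, and the others changed by fewer units in both directions. The 3 bone and cartilage markers, most of whose signal was Sox9, summed to 978 to 1030 units at 24 h and 794 to 866 at 48 h. The 6 endothelial and mural markers summed to 166 to 207 units at 24 h and 139.8 to 164 at 48 h, with Pecam1 below the dim level. The mature adipocyte, macrophage, bone and cartilage, and endothelial and mural sums did not overlap between the times, and their part in the results was not tested. Among single genes tested, arrays of the 2 times did not overlap for 55.6%, so such a lack of overlap was common. The fibroblast and preadipocyte sums overlapped, as did those of lymphocyte, epithelial, muscle and neural markers.

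From 24 h to 48 h, 3302 of the 13644 genes were called at an adjusted p under 0.05 (24.2% of genes tested), of which 1640 rose (12.0%) and 1662 fell (12.2%). The falls were deeper than the rises: 128 genes fell and 16 rose by more than 4-fold, and 444 fell and 260 rose by more than 2-fold. The median change over all genes was 0.01 on the log2 scale. Arrays of the 2 groups did not overlap for 7592 genes (55.6%), and for 3301 of the 3302 called. Without siLsd1 48 h replicate 3, 5510 genes were called (40.4%), 2878 higher (21.1%) and 2632 lower (19.3%), and these included all 3302 in the same direction. Leaving out siC 24 h replicate 1 or 2, which leaves a single 24 h control array assumed to vary like the other groups, reduced the count to 1488 or 1482, and leaving out siC 48 h replicate 2 reduced it to 2116. The calls of 1073 genes, 422 higher and 651 lower, stood whichever of the 10 arrays was left out. Array intensity measures RNA per unit of RNA labelled, so fewer cells of a kind and less RNA per cell cannot be told apart in any value below.

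**Figure D1:**
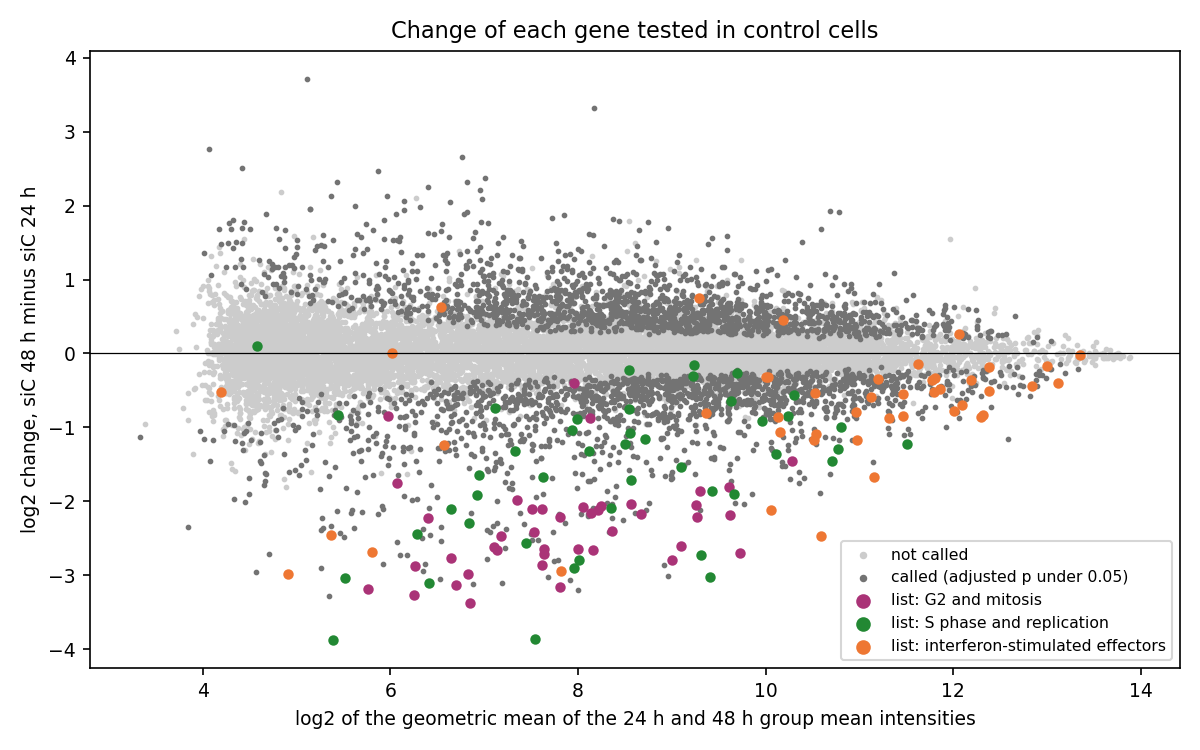
The log2 change from siC 24 h (2 arrays) to siC 48 h (3 arrays) of each of 13644 genes is plotted against the log2 geometric mean of the 2 group mean intensities. The 3302 called genes are dark grey, and the lists of G2 and mitosis, S phase and interferon-stimulated genes are coloured. Most mitosis and S phase genes lie well below 0, with list medians of -2.31 and -1.34. The highest members of the 2 lists lie at -0.40 and 0.11.

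Gene lists gave an overview of which functions moved. Beside 12.0% of all genes called higher and 12.2% called lower, 41 of 42 G2 and mitosis genes, 40 of 44 S phase genes, 24 of 34 genes of the ATF4 amino acid response, 15 of 28 cholesterol genes, 32 of 45 interferon-stimulated effectors and 10 of 17 genes of MHC class I presentation were lower. Lysosome and autophagy genes (15 of 34) and fatty acid oxidation genes (9 of 21) were called higher and none of them was called lower. Ribosomal proteins had changes of -0.09 to 0.17 on the log2 scale over 25 genes. Several lists had shares near those of all genes, and their counts below are not read as a change of the list. Examples are hypoxia (17.9% higher, 10.7% lower), oxidative phosphorylation (5.56%, 13.9%), IGF and insulin signalling (16.7%, 16.7%) and NRF2 targets (16.1%, 19.4%). List sizes and medians are given with each list below, and none of the lists was tested as a set. The lists were chosen with earlier results of these data known.

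**Figure D2:**
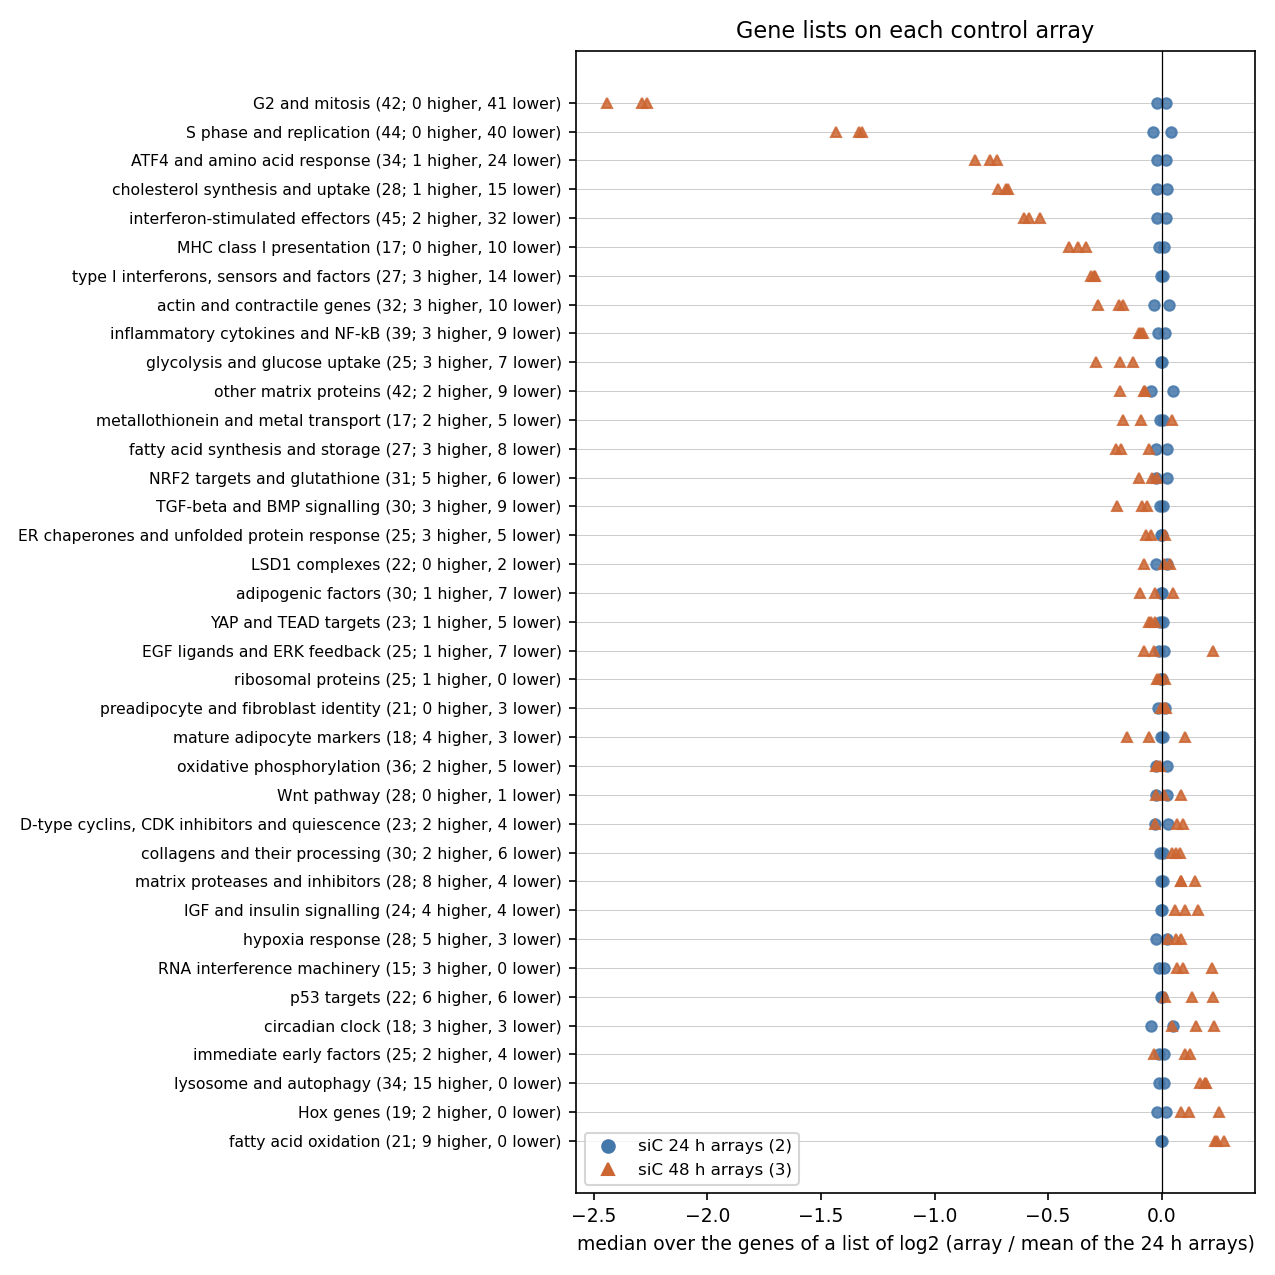
For each gene list with 15 or more genes tested, the points give the median over its genes of log2 of the intensity on an array over the mean of the siC 24 h arrays, with circles for the 2 siC 24 h arrays and triangles for the 3 siC 48 h arrays. The numbers beside a list are genes tested, called higher and called lower. The siC 48 h arrays lie at -2.44 to -2.27 for G2 and mitosis and at -1.43 to -1.32 for S phase.

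The genes of G2 and mitosis had fallen on every 48 h array. Of 42 tested, 41 were called lower and 0 higher (median -2.31), 39 of them by more than 2-fold, and all 42 were lower on each 48 h array than on either 24 h array. The gene not called was Cdc25b, a phosphatase that activates CDK1, named for that reason after its values were seen (log2 change -0.40 ± 0.14 (SE), adjusted p = 0.07). Nuf2 and Ndc80 encode subunits of the NDC80 complex, which ties the kinetochore to spindle microtubules. Nuf2 had intensities of 378 and 367 at 24 h and 34.9, 34.1 and 38.5 at 48 h (log2 change -3.38 ± 0.42 (SE), 10.4-fold lower, adjusted p = 0.00048). Ndc80 stood at 263 and 209 at 24 h and 29.6, 18.2 and 26.4 at 48 h (log2 change -3.27 ± 0.43 (SE), 9.67-fold lower, adjusted p = 0.00066). Both were lower on each 48 h array than on any 24 h array, with several-fold gaps. The checkpoint kinases followed the same course: Bub1, which guards chromosome attachment, stood at 663 and 678 at 24 h and 69.5, 72.9 and 83.5 at 48 h (log2 change -3.16 ± 0.32 (SE), 8.94-fold lower, adjusted p = 0.00015), and Ttk, which encodes the kinase MPS1, at 185 and 139.9 at 24 h and 16.5, 13.8 and 24 at 48 h (8.0-fold lower with intensities under 18.4 raised to that level, adjusted p = 0.00098). Aurkb, the kinase of the chromosomal passenger complex, stood at 313 and 296 at 24 h and 27.8, 43.4 and 34.9 at 48 h (log2 change -3.13 ± 0.29 (SE), 8.74-fold lower, adjusted p = 0.00011). Kif11, the kinesin that pushes spindle poles apart, stood at 317 and 318 at 24 h and 34, 43.7 and 43.7 at 48 h (log2 change -2.98 ± 0.22 (SE), 7.89-fold lower, adjusted p = 5.0e-05). The widely used proliferation marker Mki67 stood at 712 and 729 at 24 h and 113, 116 and 112 at 48 h (log2 change -2.66 ± 0.20 (SE), 6.32-fold lower, adjusted p = 5.0e-05). None of these calls was lost when any single array was left out, and 39 of the list's 41 calls held in the same way. 

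DNA replication and S phase genes fell with them. Of 44 tested, 40 were called lower and 0 higher (median -1.34), 30 by more than 2-fold, and 35 calls stood whichever array was left out. The 4 not called were Rpa3, Ccne1, Prim1 and Tyms, named after their values were seen, and Tyms, thymidylate synthase, stood at 20.2 and 25.9 at 24 h and 22.9, 26.8 and 24.4 at 48 h (log2 change 0.11 ± 0.24 (SE), adjusted p = 0.8). These Tyms values lay near the dim level of 18.4 units. Tyms had other probe sets of opposite sign, at -1.30 and -0.26 on the log2 scale. Their means at 24 h and 48 h were 28.4 and 11.4 units and 10.4 and 8.8 units, in that order. A further dim probe set had the same sign (0.18). Cdc6, which loads the replicative helicase onto origins, stood at 164 and 155 at 24 h and 8.23, 11.9 and 13.1 at 48 h (8.64-fold lower with intensities under 18.4 raised to that level, adjusted p = 0.00015). Tk1, the thymidine kinase made in S phase, stood at 832 and 587 at 24 h and 51.8, 53.5 and 40.3 at 48 h (log2 change -3.86 ± 0.30 (SE), 14.5-fold lower, adjusted p = 5.4e-05). Cdc6 on all 3 arrays at 48 h was below the dim level, while Tk1 remained above it. Mcm5, a subunit of that helicase, stood at 2003 and 1862 at 24 h and 230.3, 218 and 269 at 48 h (log2 change -3.02 ± 0.37 (SE), 8.11-fold lower, adjusted p = 0.00042). Uhrf1, which recruits the maintenance DNA methyltransferase to new strands, stood at 638 and 717 at 24 h and 80.1, 92.4 and 101 at 48 h (log2 change -2.90 ± 0.19 (SE), 7.44-fold lower, adjusted p = 3.0e-05). Exo1, an exonuclease of mismatch repair, was 8.59-fold lower, adjusted p = 0.0002. E2f8, an E2F family repressor that is itself made in S phase, was 7.06-fold lower, adjusted p = 5.0e-05. Other genes of division and repair were among the 15 genes with the largest falls. These were Esco2 (6.46-fold lower), of sister chromatid cohesion, Pbk (9.19-fold lower), a mitotic kinase, and Rad51ap1 (8.63-fold lower), of recombination. Shcbp1, a midbody protein, was 8.40-fold lower, and Kntc1, a kinetochore protein, was 8.27-fold lower. E2f8 and Esco2 had other probe sets of opposite sign, at 0.82 (E2f8) and 0.19 (Esco2) on the log2 scale. Both were below the dim level, with means at 24 h and 48 h of 3.03 and 4.85 units (E2f8) and 2.35 and 2.84 units (Esco2).

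Promoter windows of the lists were read for short elements, since genes of a list had moved together. Each window runs from 250 bases before to 50 bases after the start site in RefSeq's mouse assembly GRCm38.p6, and 8789 of the genes tested had a single window. The cell cycle homology region was searched as TTTGAA or TTCGAA and the CCAAT box as CCAAT, on both strands, with matches that overlap each other counted. The cell cycle homology region was in 25 of 33 windows of G2 and mitosis genes (75.8%), in 13.8% of windows of all genes tested, in 19.3% of those called lower and in 12.2% of those called higher. The CCAAT box was in 24 of 33 (72.7%), against 38.9% of all. Lists with median changes near 0 varied widely in it, with 86.4% for ER chaperones, 75% for clock genes and 30.4% for oxidative phosphorylation. Both elements together were in 22 of 33 windows (66.7%), against 5.40% of all. The E2F element, searched as TTTCCCGC or TTTGGCGC on both strands, was in 8 of 31 windows of S phase genes (25.8%) and in 3.07% of all, and the G2 and mitosis windows held 0. A match is a description of letters and not a site shown to be bound. Windows of 3 of the mitosis genes described above that hold both elements are shown, written 5′ to 3′ on the gene's strand with matches to either element in capitals, for Ttk at chr9:83834439-83834738, plus strand, Bub1 at chr2:127831810-127832109, minus strand and Kif11 at chr19:37376132-37376431, plus strand.
Ttk: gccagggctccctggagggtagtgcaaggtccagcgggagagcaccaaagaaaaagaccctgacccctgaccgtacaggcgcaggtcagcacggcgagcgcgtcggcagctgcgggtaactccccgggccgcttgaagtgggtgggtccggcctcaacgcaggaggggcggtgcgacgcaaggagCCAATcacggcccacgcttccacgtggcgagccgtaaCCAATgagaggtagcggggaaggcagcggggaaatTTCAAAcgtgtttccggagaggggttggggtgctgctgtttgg
Bub1: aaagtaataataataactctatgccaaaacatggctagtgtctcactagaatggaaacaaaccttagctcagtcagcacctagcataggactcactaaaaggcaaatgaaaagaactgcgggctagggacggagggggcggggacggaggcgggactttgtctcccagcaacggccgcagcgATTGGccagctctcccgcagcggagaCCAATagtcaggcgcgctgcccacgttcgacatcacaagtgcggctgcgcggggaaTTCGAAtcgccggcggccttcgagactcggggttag
Kif11: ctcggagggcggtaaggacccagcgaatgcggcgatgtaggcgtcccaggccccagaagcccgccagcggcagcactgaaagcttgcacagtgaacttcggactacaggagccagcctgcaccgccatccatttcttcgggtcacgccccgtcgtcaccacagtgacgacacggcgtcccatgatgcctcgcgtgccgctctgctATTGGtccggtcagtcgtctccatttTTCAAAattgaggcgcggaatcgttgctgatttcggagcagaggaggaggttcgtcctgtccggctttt
The windows of Cdc6, at chr11:98907901-98908200, plus strand, and Mcm5, at chr8:75109259-75109558, plus strand, are shown as S phase genes with an E2F match, in capitals.
Cdc6: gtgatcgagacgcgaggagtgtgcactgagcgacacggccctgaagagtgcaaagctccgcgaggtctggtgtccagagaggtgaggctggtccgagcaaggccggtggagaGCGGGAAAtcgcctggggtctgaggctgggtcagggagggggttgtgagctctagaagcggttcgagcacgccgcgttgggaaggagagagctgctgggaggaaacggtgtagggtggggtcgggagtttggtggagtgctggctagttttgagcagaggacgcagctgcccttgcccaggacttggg
Mcm5: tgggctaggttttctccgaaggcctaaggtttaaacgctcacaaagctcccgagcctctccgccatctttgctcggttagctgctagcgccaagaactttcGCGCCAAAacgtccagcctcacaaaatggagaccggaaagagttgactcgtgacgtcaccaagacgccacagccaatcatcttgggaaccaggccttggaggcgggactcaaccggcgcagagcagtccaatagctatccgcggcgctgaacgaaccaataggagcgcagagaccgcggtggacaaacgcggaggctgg

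Regulators at the entry to the cycle moved less and in both directions. Of 23 D-type cyclins, CDK inhibitors and quiescence genes, 2 were called higher (8.7%) and 4 lower (17.4%), beside 12.0% and 12.2% of all genes (list median 0.03). Ccnd1, cyclin D1, which starts the path through G1, stood at 5283 and 5775 at 24 h and 2776, 3298 and 3580.1 at 48 h (log2 change -0.79 ± 0.10 (SE), 1.73-fold lower, adjusted p = 0.00045). Ccnd2, cyclin D2, stood at 6638 and 6726 at 24 h and 3696, 3701 and 3767 at 48 h (log2 change -0.84 ± 0.07 (SE), 1.80-fold lower, adjusted p = 6.3e-05). Neither gene's arrays overlapped between the times. Rbl1, which encodes the pocket protein p107 and is itself an E2F target, was 3.32-fold lower, adjusted p = 2.2e-05. Among 22 p53 targets, 6 were higher and 6 lower (median 0.11). Trp53i13 was 1.62-fold higher, adjusted p = 0.0041, while Plk2, a kinase that p53 induces, was 2.24-fold lower, adjusted p = 0.0014. For the D-type cyclin list, leaving out 1 array gave counts higher and lower of 0 and 3 (siC 24 h replicate 1), 1 and 4 (siC 24 h replicate 2, siLsd1 24 h replicates 1 or 2 or siC 48 h replicates 2 or 3) and 6 and 7 (siLsd1 48 h replicate 3). For the p53 target list, leaving out 1 array gave counts higher and lower of 1 and 2 (siC 24 h replicate 1), 1 and 3 (siC 24 h replicate 2) and 3 and 4 (siC 48 h replicate 1). Other p53 target counts were 3 and 2 (siC 48 h replicate 2). Rbl1 had another probe set of opposite sign, at 0.56 on the log2 scale, with means below the dim level (4.42 units at 24 h and 6.8 at 48 h).

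Early response genes and growth factor signalling held a few deep falls. Atf3, a stress-induced factor of the ATF family, stood at 214 and 232 at 24 h and 33, 34.3 and 49.6 at 48 h (log2 change -2.54 ± 0.27 (SE), 5.82-fold lower, adjusted p = 0.0002). Myc, which drives growth and ribosome production, stood at 882 and 952 at 24 h and 267, 294 and 288 at 48 h (log2 change -1.70 ± 0.28 (SE), 3.24-fold lower, adjusted p = 0.0022). Of 25 immediate early factors these and 2 others were lower and 2 were higher, among them Srf, the serum response factor (1.54-fold higher, adjusted p = 0.0016). Of 25 EGF ligands and genes of ERK feedback, 1 was higher and 7 lower. Hbegf, a ligand of the EGF receptor, stood at 231 and 153 at 24 h and 68.2, 85.8 and 64 at 48 h (log2 change -1.38 ± 0.22 (SE), 2.61-fold lower, adjusted p = 0.002). Dusp6, a phosphatase of ERK that ERK signalling induces, stood at 223 and 244 at 24 h and 92.2, 97.2 and 108 at 48 h (log2 change -1.24 ± 0.14 (SE), 2.36-fold lower, adjusted p = 0.00035), and Etv5, another ERK-responsive gene, was 1.96-fold lower, adjusted p = 0.00084. Of 23 YAP and TEAD targets, 1 was higher and 5 lower. Ccn2, connective tissue growth factor, stood at 161 and 192 at 24 h and 45.1, 38.5 and 55.4 at 48 h (log2 change -1.94 ± 0.26 (SE), 3.84-fold lower, adjusted p = 0.00065), and Ankrd1, a nuclear ankyrin protein, was 2.24-fold lower, adjusted p = 0.0021. The medians of these 3 lists were 0.15, -0.02 and -0.02. For the immediate early list, leaving out 1 array gave counts higher and lower of 1 and 2 (siC 24 h replicates 1 or 2 or siC 48 h replicates 1 or 2), 1 and 3 (siLsd1 24 h replicates 1 or 2) and 6 and 6 (siLsd1 48 h replicate 3). For the EGF and ERK list, leaving out 1 array gave counts higher and lower of 0 and 4 (siC 24 h replicate 1), 0 and 5 (siC 24 h replicate 2) and 0 and 6 (siC 48 h replicates 2 or 3). Other EGF and ERK counts were 8 and 8 (siLsd1 48 h replicate 3). For the YAP and TEAD list, leaving out 1 array gave counts higher and lower of 0 and 3 (siC 24 h replicate 1 or siC 48 h replicates 2 or 3), 1 and 2 (siC 24 h replicate 2) and 2 and 4 (siLsd1 24 h replicates 1 or 2). Other YAP and TEAD counts were 3 and 6 (siLsd1 48 h replicate 3). Srf had another probe set of opposite sign, at -0.18 on the log2 scale.

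Interferon genes and their targets were lower at 48 h than at 24 h in control cells. Of 27 interferons, RNA and DNA sensors and their factors, 3 were called higher and 14 lower (median -0.30), and of 45 interferon-stimulated effectors 2 were higher and 32 lower (median -0.55). Ifnb1, interferon beta, stood at 106 and 93.9 at 24 h and 27.1, 16.2 and 25.5 at 48 h (log2 change -2.16 ± 0.23 (SE), 4.46-fold lower, adjusted p = 0.00022). Ifna4, one of the alpha interferons, stood at 50.2 and 39.5 at 24 h and 12.3, 16.5 and 14.9 at 48 h (2.42-fold lower with intensities under 18.4 raised to that level, adjusted p = 0.00047). Both were above the dim level on the 24 h arrays, and Ifna4 was below it on every 48 h array. The sensors of double-stranded RNA fell as well: Ifih1, which encodes MDA5, stood at 1911 and 1899 at 24 h and 818, 719.6 and 779 at 48 h (log2 change -1.30 ± 0.08 (SE), 2.47-fold lower, adjusted p = 2.2e-05) and Tlr3, the endosomal receptor, at 1811 and 1887 at 24 h and 801, 764 and 795 at 48 h (log2 change -1.23 ± 0.09 (SE), 2.35-fold lower, adjusted p = 5.0e-05). Cgas, the sensor of cytosolic DNA, was 2.98-fold lower, adjusted p = 0.0031, and Irf5, a factor of the interferon response, was 2.92-fold lower, adjusted p = 0.00017. The 3 members called higher, Ikbke (1.63-fold higher, adjusted p = 0.017), Tyk2 (1.33-fold higher, adjusted p = 0.021) and Irf3 (1.23-fold higher, adjusted p = 0.019), are a kinase upstream of IRF3, a kinase of the interferon receptor and IRF3 itself. For the sensor list, leaving out 1 array gave counts higher and lower of 0 and 10 (siC 24 h replicate 1), 0 and 9 (siC 24 h replicate 2) and 1 and 12 (siC 48 h replicate 2). The call of Ikbke did not hold without any 1 of siC 24 h replicates 1 and 2 (adjusted p up to 0.13). The call of Irf3 did not hold without any 1 of siC 24 h replicates 1 and 2 and siC 48 h replicate 2 (adjusted p up to 0.11). The call of Tyk2 did not hold without any 1 of siC 24 h replicates 1 and 2 and siC 48 h replicates 1 and 2 (adjusted p up to 0.12). Irf5 had another probe set of opposite sign, at 0.22 on the log2 scale.

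Chemokines were among the interferon-stimulated genes with the largest falls. Cxcl10, which attracts T cells through CXCR3, stood at 3465 and 3764 at 24 h and 521, 694 and 774 at 48 h (log2 change -2.46 ± 0.16 (SE), 5.52-fold lower, adjusted p = 3.0e-05). Cxcl11, a ligand of the same receptor, stood at 624 and 625 at 24 h and 69.5, 83.4 and 93.4 at 48 h (log2 change -2.94 ± 0.26 (SE), 7.66-fold lower, adjusted p = 8.1e-05), and Cxcl9 at 132 and 151 at 24 h and 20.6, 21.8 and 23.4 at 48 h (log2 change -2.68 ± 0.31 (SE), 6.43-fold lower, adjusted p = 0.00033). All 3 were several-fold lower on every 48 h array. Oasl1, of the oligoadenylate synthetase family, stood at 80.2 and 81.1 at 24 h and 5.51, 15.6 and 12.4 at 48 h (4.38-fold lower with intensities under 18.4 raised to that level, adjusted p = 0.00051), and Mx1, an antiviral GTPase, at 2068 and 2369 at 24 h and 526, 465 and 536 at 48 h (log2 change -2.12 ± 0.14 (SE), 4.36-fold lower, adjusted p = 3.1e-05). Ifi209, of the IFI200 family of nucleic acid sensors, was 4.94-fold lower, adjusted p = 0.0014. For the interferon-stimulated list, leaving out 1 array gave counts higher and lower of 1 and 28 (siC 24 h replicate 1), 0 and 26 (siC 24 h replicate 2) and 1 and 30 (siC 48 h replicate 3). Other interferon-stimulated counts were 4 and 32 (siLsd1 48 h replicate 2) and 4 and 38 (siLsd1 48 h replicate 3). The 2 members called higher were Ifi27 (1.68-fold higher, adjusted p = 0.0092) and Ifitm1 (1.55-fold higher, adjusted p = 0.02). The interferon element, searched as GAAANNGAA on both strands, was in 14 of 28 windows of these effectors (50%), in 8 of 22 windows of the interferon and sensor list (36.4%) and in 7.10% of windows of all genes tested. It was in 9.58% of windows of all genes called lower and in 7.08% of those called higher. Among lists that did not fall, it was in 5 of 16 ribosomal protein windows (31.2%), 2 of 6 complement windows (33.3%) and 0 of 22 ER chaperone windows. The windows of Cxcl9, at chr5:92328030-92328329, minus strand, and Cxcl10, at chr5:92348840-92349139, minus strand, both of GRCm38.p6 in RefSeq and with the match in capitals, are shown for the 2 chemokines.
Cxcl9: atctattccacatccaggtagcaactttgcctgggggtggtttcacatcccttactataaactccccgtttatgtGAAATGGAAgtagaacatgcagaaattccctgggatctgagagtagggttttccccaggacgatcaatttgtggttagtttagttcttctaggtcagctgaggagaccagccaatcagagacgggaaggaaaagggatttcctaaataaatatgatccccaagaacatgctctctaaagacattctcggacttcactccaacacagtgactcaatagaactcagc
Cxcl10: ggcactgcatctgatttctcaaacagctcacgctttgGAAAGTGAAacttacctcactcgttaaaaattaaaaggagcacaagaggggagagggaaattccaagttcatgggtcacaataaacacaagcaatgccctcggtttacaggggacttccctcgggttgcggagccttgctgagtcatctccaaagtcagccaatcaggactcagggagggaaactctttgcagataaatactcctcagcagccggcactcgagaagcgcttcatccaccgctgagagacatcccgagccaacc
The call of Ifi27 did not hold without siC 24 h replicate 2 (adjusted p up to 0.092). The call of Ifitm1 did not hold without any 1 of siC 24 h replicates 1 and 2 and siC 48 h replicate 3 (adjusted p up to 0.11).

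**Figure D3:**
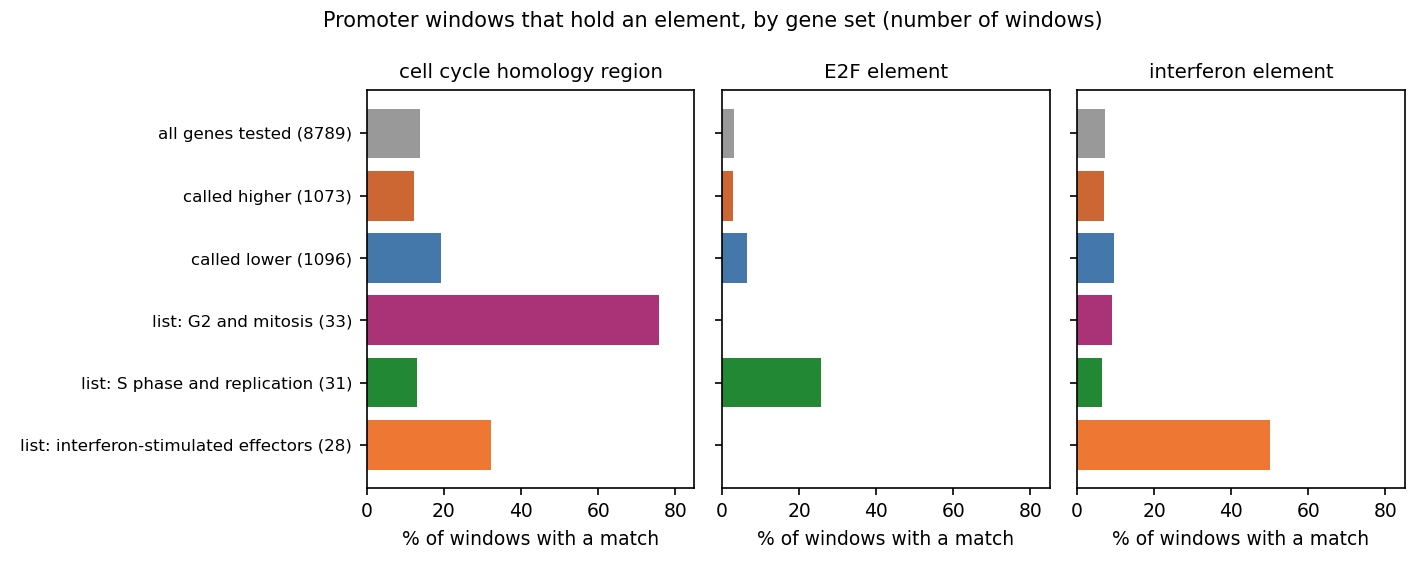
Bars give the percentage of promoter windows that hold a cell cycle homology region, an E2F element or an interferon element, for all genes tested, genes called higher or lower, and 3 gene lists, with the number of windows in parentheses. The cell cycle homology region was in 75.8% of G2 and mitosis windows and the interferon element in 50% of windows of interferon-stimulated effectors.

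Genes of antigen presentation and some cytokines were lower at 48 h. Of 17 genes of class I presentation 10 were lower and 0 higher (median -0.33), and 7 calls stood whichever array was left out. Psmb9, a catalytic subunit of the immunoproteasome, stood at 1697 and 1621 at 24 h and 794, 632 and 637 at 48 h (log2 change -1.28 ± 0.11 (SE), 2.43-fold lower, adjusted p = 7.7e-05). Nlrc5, the transactivator of class I genes, stood at 580.0 and 660.0 at 24 h and 226, 227 and 261 at 48 h (log2 change -1.38 ± 0.11 (SE), 2.60-fold lower, adjusted p = 5.4e-05), and Tap1, a subunit of the peptide transporter, was 1.83-fold lower, adjusted p = 0.00014. Of 39 inflammatory cytokines and NF-kB genes, 3 were higher and 9 lower (median -0.18). Il6, interleukin 6, stood at 345 and 352 at 24 h and 36.2, 41 and 42.9 at 48 h (log2 change -3.12 ± 0.43 (SE), 8.72-fold lower, adjusted p = 0.00084), one of the 15 genes with the largest falls. Ccl2, the monocyte attractant, stood at 3956 and 3195 at 24 h and 2343, 2280.0 and 2144 at 48 h (log2 change -0.66 ± 0.10 (SE), 1.58-fold lower, adjusted p = 0.0015), and Ptgs2, the inducible cyclooxygenase, was 1.87-fold lower, adjusted p = 0.01. Nfkbiz, an inducible regulator of NF-kB, was 1.55-fold higher, adjusted p = 0.0052. Complement genes numbered 13, of which 2 were higher and 0 lower: C1s1, a protease of the classical pathway, was 2.41-fold higher, adjusted p = 0.017 and Cd59a, a membrane inhibitor of complement, was 1.61-fold higher, adjusted p = 0.025. For the cytokine list, leaving out 1 array gave counts higher and lower of 1 and 5 (siC 24 h replicate 1), 3 and 5 (siC 24 h replicate 2) and 5 and 14 (siLsd1 48 h replicate 3). For the complement list, leaving out 1 array gave counts higher and lower of 0 and 0 (siC 24 h replicate 1 or siC 48 h replicate 2), 0 and 1 (siC 24 h replicate 2) and 1 and 0 (siC 48 h replicate 1). The call of Nfkbiz did not hold without siC 24 h replicate 1 (adjusted p up to 0.062). The call of Ptgs2 did not hold without any 1 of siC 24 h replicates 1 and 2 (adjusted p up to 0.081). The call of C1s1 did not hold without any 1 of siC 24 h replicates 1 and 2 and siC 48 h replicate 2 (adjusted p up to 0.11). The call of Cd59a did not hold without any 1 of siC 24 h replicates 1 and 2 and siC 48 h replicates 1, 2 and 3 (adjusted p up to 0.14). Tap1 had another probe set of opposite sign, at 0.34 on the log2 scale, with means below the dim level (8.9 units at 24 h and 11.4 at 48 h).

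**Figure D4:**
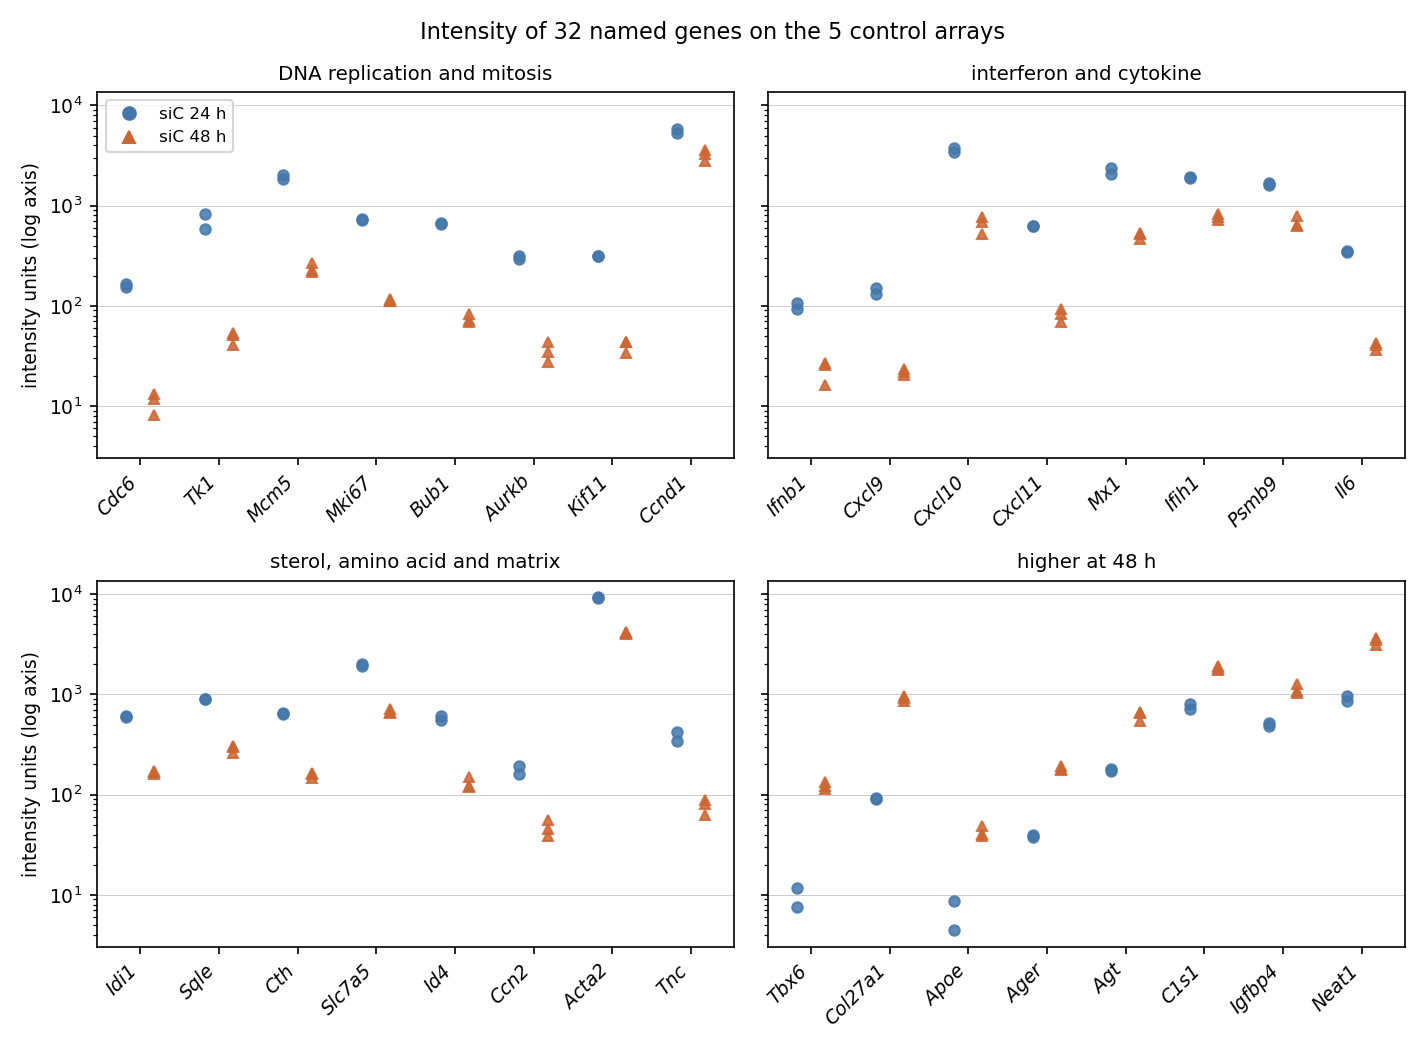
Intensity on a log axis of 32 named genes in 4 panels, with blue circles for the 2 siC 24 h arrays and orange triangles for the 3 siC 48 h arrays. For each of the 32 genes the arrays of the 2 times do not overlap, and Cdc6 falls from 164 and 155 units at 24 h to 13.1 or less at 48 h.

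Genes of sterol synthesis fell, and some of fatty acid oxidation rose by small amounts. Of 28 genes of cholesterol synthesis and uptake, 1 was higher and 15 lower (median -0.68), with 10 of the falls holding whichever array was left out, and 7 lower where probe sets were averaged per gene. Idi1, isopentenyl diphosphate isomerase, stood at 615 and 595 at 24 h and 159, 168 and 174 at 48 h (log2 change -1.86 ± 0.35 (SE), 3.62-fold lower, adjusted p = 0.0044). Sqle, squalene epoxidase, stood at 894 and 905 at 24 h and 307, 258 and 300.4 at 48 h (log2 change -1.65 ± 0.17 (SE), 3.13-fold lower, adjusted p = 0.00019). Hsd17b7, an enzyme late in the pathway, was 2.78-fold lower, adjusted p = 0.00014, and Stard4, a sterol carrier, was 2.78-fold lower, adjusted p = 0.00091. Scap, the escort of the SREBP factors that control these genes, moved the other way and stood at 1544 and 1474 at 24 h and 2074, 2047 and 1996 at 48 h (log2 change 0.43 ± 0.07 (SE), 1.35-fold higher, adjusted p = 0.0024). The CCAAT box was in 16 of 17 windows of the cholesterol list (94.1%), against 38.9% of all. A high share was not limited to lists that fell: it was 86.4% for ER chaperones, whose median change was -0.05. Of 27 genes of fatty acid synthesis and storage, 3 were higher and 8 lower (median -0.12), none by more than 2-fold. Acaca, acetyl-CoA carboxylase, was 1.55-fold lower, adjusted p = 0.0016, and Dgat1, which makes triglyceride, was 1.41-fold higher, adjusted p = 0.0039. Of 21 genes of fatty acid oxidation, 9 were higher and 0 lower (median 0.23). Ech1, an enoyl-CoA isomerase, stood at 1529.5 and 1395 at 24 h and 2414, 2336 and 2250.4 at 48 h (log2 change 0.68 ± 0.12 (SE), 1.60-fold higher, adjusted p = 0.0035), and Etfdh, which passes electrons from this pathway to ubiquinone, was 1.38-fold higher, adjusted p = 0.0024. For the cholesterol list, leaving out 1 array gave counts higher and lower of 2 and 14 (siC 48 h replicate 1) and 3 and 17 (siLsd1 48 h replicate 3). For the fatty acid synthesis list, leaving out 1 array gave counts higher and lower of 1 and 2 (siC 24 h replicates 1 or 2), 2 and 5 (siLsd1 24 h replicates 1 or 2 or siC 48 h replicate 1) and 2 and 3 (siC 48 h replicate 2). Other fatty acid synthesis counts were 5 and 11 (siLsd1 48 h replicate 3). For the fatty acid oxidation list, leaving out 1 array gave counts higher and lower of 3 and 0 (siC 24 h replicates 1 or 2) and 5 and 1 (siC 48 h replicate 2). 

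Glycolysis genes held more falls than rises, with 12% higher and 28% lower beside 12.0% and 12.2% of all genes. Hypoxia genes (17.9% higher, 10.7% lower) and respiration genes (5.56% higher, 13.9% lower) lay near the shares of all genes. Of 25 genes of glycolysis and glucose uptake, 3 were higher and 7 lower (median -0.17). Hk2, hexokinase 2, stood at 622 and 667 at 24 h and 206, 213 and 230.1 at 48 h (log2 change -1.58 ± 0.31 (SE), 2.98-fold lower, adjusted p = 0.0058), and Pfkfb3, which makes the activator of phosphofructokinase, was 2.46-fold lower, adjusted p = 0.0011. Pkm, pyruvate kinase, was 1.83-fold lower, adjusted p = 0.0026. Txnip, an arrestin that takes glucose transporters off the surface, stood at 5166 and 5323 at 24 h and 6031, 6212 and 6463 at 48 h (log2 change 0.25 ± 0.08 (SE), 1.19-fold higher, adjusted p = 0.044). Of 28 hypoxia genes, 5 were higher and 3 lower (median 0.11), led by Ndrg1 (2.34-fold higher, adjusted p = 0.0095) and Ddit4, an inhibitor of mTORC1 (2.33-fold lower, adjusted p = 0.0021). Of 36 subunits of oxidative phosphorylation, 2 were higher and 5 lower with a median of 0.00, and Cycs, cytochrome c, was 2.15-fold lower, adjusted p = 0.0086. For the glycolysis list, leaving out 1 array gave counts higher and lower of 1 and 5 (siC 24 h replicate 1), 1 and 4 (siC 24 h replicate 2) and 5 and 13 (siLsd1 48 h replicate 3). For the hypoxia list, leaving out 1 array gave counts higher and lower of 0 and 1 (siC 24 h replicate 1), 2 and 1 (siC 24 h replicate 2) and 3 and 2 (siC 48 h replicates 2 or 3). Other hypoxia counts were 11 and 7 (siLsd1 48 h replicate 3). For the oxidative phosphorylation list, leaving out 1 array gave counts higher and lower of 1 and 1 (siC 24 h replicate 1 or siC 48 h replicate 2), 0 and 0 (siC 24 h replicate 2) and 2 and 3 (siLsd1 24 h replicates 1 or 2 or siC 48 h replicates 1 or 3). Other oxidative phosphorylation counts were 5 and 7 (siLsd1 48 h replicate 3). The calls of Hk2 and Cycs did not hold without siC 24 h replicate 2 (adjusted p up to 0.051 and 0.075, in that order). The call of Ndrg1 did not hold without siC 24 h replicate 1 (adjusted p up to 0.083). The call of Txnip did not hold without any 1 of siC 24 h replicates 1 and 2, siLsd1 24 h replicates 1 and 2, siC 48 h replicates 1, 2 and 3 and siLsd1 48 h replicate 2 (adjusted p up to 0.21). Cycs had another probe set of opposite sign, at 0.03 on the log2 scale.

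Of the adipogenic factors, Pparg, Cebpa and Cebpb were not called, and all 4 Id genes and Gata3 fell. Pparg, the master regulator of adipogenesis, stood at 818 and 803 at 24 h and 902, 885 and 872 at 48 h (log2 change 0.13 ± 0.07 (SE), adjusted p = 0.24). Cebpa stood at 174 and 162 at 24 h and 181, 165 and 179.6 at 48 h (log2 change 0.06 ± 0.21 (SE), adjusted p = 0.88) and Cebpb at 3231 and 3607 at 24 h and 2500.1, 2923 and 3003 at 48 h (log2 change -0.29 ± 0.12 (SE), adjusted p = 0.12). None of the 3 was called, and only Cebpa overlapped between the times. Id4, whose product blocks basic helix-loop-helix factors, stood at 609 and 556 at 24 h and 152, 118 and 121 at 48 h (log2 change -2.17 ± 0.13 (SE), 4.49-fold lower, adjusted p = 2.2e-05). Id2 stood at 1343 and 1357 at 24 h and 415, 455 and 488 at 48 h (log2 change -1.58 ± 0.18 (SE), 2.99-fold lower, adjusted p = 0.00027), Id3 was 3.09-fold lower, adjusted p = 0.0053 and Id1 was 2.13-fold lower, adjusted p = 0.0023. Gata3, which holds preadipocytes undifferentiated, was 2.48-fold lower, adjusted p = 0.00034. Of 30 adipogenic factors in all, 1 was higher and 7 lower (median -0.03). The preadipocyte marker Dlk1 stood at 5921 and 5216 at 24 h and 4892, 4738 and 4252 at 48 h (log2 change -0.27 ± 0.08 (SE), 1.20-fold lower, adjusted p = 0.039), while its other probe set was called higher. For the adipogenic factor list, leaving out 1 array gave counts higher and lower of 0 and 4 (siC 24 h replicate 1), 0 and 6 (siC 24 h replicate 2 or siC 48 h replicates 2 or 3) and 0 and 7 (siLsd1 24 h replicates 1 or 2). Other adipogenic factor counts were 8 and 9 (siLsd1 48 h replicate 3). The call of Id3 did not hold without siC 24 h replicate 1 (adjusted p up to 0.055). The call of Dlk1 did not hold without any 1 of siC 24 h replicate 1, siLsd1 24 h replicates 1 and 2, siC 48 h replicates 2 and 3 and siLsd1 48 h replicate 1 (adjusted p up to 0.3). Id2 and Dlk1 had other probe sets of opposite sign, at 0.36 (Id2) and 1.23 (called, adjusted p = 0.028) (Dlk1) on the log2 scale.

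Of 21 preadipocyte and fibroblast identity genes, 0 were higher and 3 lower (median 0.00). Col1a1, the main collagen of fibroblasts, stood at 5483 and 5168 at 24 h and 5489, 5096 and 4669 at 48 h (log2 change -0.07 ± 0.26 (SE), adjusted p = 0.89), and Fn1, fibronectin, at 7247 and 6708 at 24 h and 4179, 4256 and 4249.5 at 48 h (log2 change -0.72 ± 0.09 (SE), 1.65-fold lower, adjusted p = 0.00038). Pdgfra, a receptor of preadipocytes named after its values were seen, stood at 3493 and 3626 at 24 h and 6589, 6367 and 6717 at 48 h and was not called with all arrays (log2 change 0.88 ± 0.39 (SE), adjusted p = 0.13), while without siLsd1 48 h replicate 3 its adjusted p was 5.0e-07. Of 18 mature adipocyte markers, 4 were higher and 3 lower (median 0.00). Agt, angiotensinogen, stood at 180.4 and 171 at 24 h and 654, 665 and 548 at 48 h (log2 change 1.82 ± 0.46 (SE), 3.53-fold higher, adjusted p = 0.017), and Cd36, a fatty acid transporter, at 519.8 and 641 at 24 h and 849, 943 and 1110.3 at 48 h (log2 change 0.74 ± 0.15 (SE), 1.67-fold higher, adjusted p = 0.0076). Apoe, apolipoprotein E, rose from below the dim level, at 4.45 and 8.75 at 24 h and 40.1, 39 and 48.3 at 48 h (2.29-fold higher with intensities under 18.4 raised to that level, adjusted p = 0.0011). Fabp4, the fatty acid carrier of adipocytes, also named after its values were seen, stood at 3500.4 and 3580.1 at 24 h and 4539, 5304 and 5333 at 48 h (log2 change 0.51 ± 0.27 (SE), adjusted p = 0.2), with an adjusted p of 0.00087 without siLsd1 48 h replicate 3. For the preadipocyte identity list, leaving out 1 array gave counts higher and lower of 4 and 5 (siLsd1 48 h replicate 3). For the adipocyte marker list, leaving out 1 array gave counts higher and lower of 1 and 0 (siC 24 h replicate 1), 2 and 0 (siC 24 h replicate 2) and 2 and 3 (siC 48 h replicate 1). Other adipocyte marker counts were 2 and 2 (siC 48 h replicate 2) and 5 and 5 (siLsd1 48 h replicate 3). The call of Cd36 did not hold without siC 24 h replicate 1 (adjusted p up to 0.087). The call of Agt did not hold without any 1 of siC 24 h replicates 1 and 2 and siC 48 h replicates 1 and 2 (adjusted p up to 0.099). Fn1 had another probe set of opposite sign, at 0.70 (called, adjusted p = 0.011) on the log2 scale.

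Matrix, contractile and TGF-beta genes held more falls than rises. Their shares higher and lower were 4.76% and 21.4%, 9.38% and 31.2%, and 10% and 30%, beside 12.0% and 12.2% of all genes. Of 42 matrix proteins other than collagens, 2 were higher and 9 lower (median -0.13). Tnc, tenascin C, stood at 419 and 341 at 24 h and 88.7, 80.4 and 63.3 at 48 h (log2 change -2.30 ± 0.15 (SE), 4.93-fold lower, adjusted p = 3.0e-05), and Ccn3, a matricellular protein, at 64.9 and 79.4 at 24 h and 21.5, 19.7 and 19.1 at 48 h (log2 change -1.84 ± 0.18 (SE), 3.57-fold lower, adjusted p = 0.00015). Ccn5, of the same family, was 3.04-fold lower, adjusted p = 0.0021. Of 32 actin and contractile genes, 3 were higher and 10 lower (median -0.21). Acta2, smooth muscle actin, stood at 9290.0 and 9155 at 24 h and 4012, 4235 and 4123 at 48 h (log2 change -1.16 ± 0.10 (SE), 2.24-fold lower, adjusted p = 8.1e-05), and Tagln, transgelin, at 958 and 774 at 24 h and 300.4, 283 and 238 at 48 h (log2 change -1.66 ± 0.16 (SE), 3.16-fold lower, adjusted p = 0.00014). Actg2, enteric actin, was 3.95-fold lower, adjusted p = 8.4e-05, and Myl6, a myosin light chain, was 3.07-fold higher, adjusted p = 5.4e-05. Of 30 genes of TGF-beta and BMP signalling, 3 were higher and 9 lower (median -0.08). The inhibitory SMADs, which the pathway itself induces, were both lower: Smad7 was 2.21-fold lower, adjusted p = 0.00059 and Smad6 was 1.88-fold lower, adjusted p = 0.00039. For the matrix protein list, leaving out 1 array gave counts higher and lower of 0 and 5 (siC 24 h replicates 1 or 2), 1 and 8 (siLsd1 24 h replicates 1 or 2) and 0 and 7 (siC 48 h replicates 2 or 3). Other matrix protein counts were 9 and 17 (siLsd1 48 h replicate 3). For the contractile list, leaving out 1 array gave counts higher and lower of 3 and 6 (siC 24 h replicate 1) and 3 and 18 (siLsd1 48 h replicate 3). For the TGF-beta and BMP list, leaving out 1 array gave counts higher and lower of 0 and 5 (siC 24 h replicates 1 or 2), 1 and 8 (siC 48 h replicate 2) and 1 and 9 (siC 48 h replicate 3). Other TGF-beta and BMP counts were 6 and 12 (siLsd1 48 h replicate 3). Tnc and Acta2 had other probe sets of opposite sign, at 0.47 (Tnc) and 0.34 and 0.88 (Acta2) on the log2 scale. These lay near or below the dim level. Their means at 24 h and 48 h were 6.46 and 10.2 units (Tnc), and 17.3 and 22.0 and 7.5 and 14.3 units (Acta2).

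Collagens, proteases and other secreted factors had calls in both directions. Of 30 collagens and their processing enzymes, 2 were higher and 6 lower (median 0.08). Bmp1, which trims procollagen, stood at 545 and 444 at 24 h and 1174, 1176 and 987 at 48 h (log2 change 1.17 ± 0.22 (SE), 2.25-fold higher, adjusted p = 0.0046), and Plod3, a lysyl hydroxylase, was 1.51-fold lower, adjusted p = 0.0011. Matrix proteases and inhibitors numbered 28, of which 8 were higher and 4 lower (median 0.10). Mmp3, stromelysin 1, stood at 46.8 and 34.4 at 24 h and 81.5, 88.5 and 84.6 at 48 h (log2 change 1.08 ± 0.18 (SE), 2.11-fold higher, adjusted p = 0.0021). The inhibitors Timp3 (2.77-fold lower, adjusted p = 0.0014) and Timp1 (1.61-fold lower, adjusted p = 0.00045) fell, and the membrane inhibitor Reck was 2.07-fold higher, adjusted p = 0.015. Of 24 genes of IGF and insulin signalling, 4 were higher (16.7%) and 4 lower (16.7%), near the 12.0% and 12.2% of all genes (list median 0.10). Igfbp4, an IGF binding protein, stood at 516 and 489 at 24 h and 1089, 1263 and 1038 at 48 h (log2 change 1.16 ± 0.12 (SE), 2.24-fold higher, adjusted p = 0.0002), and its protease Pappa was 2.08-fold lower, adjusted p = 0.0061. Insr, the insulin receptor, was 1.79-fold higher, adjusted p = 0.002. Of 28 Wnt genes, only Rspo3, an R-spondin that strengthens Wnt signalling, was called (4.70-fold lower, adjusted p = 0.01). For the collagen list, leaving out 1 array gave counts higher and lower of 1 and 2 (siC 24 h replicate 1), 0 and 3 (siC 24 h replicate 2) and 1 and 5 (siLsd1 24 h replicates 1 or 2 or siC 48 h replicate 1). Other collagen counts were 1 and 4 (siC 48 h replicates 2 or 3) and 10 and 9 (siLsd1 48 h replicate 3). For the protease list, leaving out 1 array gave counts higher and lower of 3 and 2 (siC 24 h replicates 1 or 2), 5 and 3 (siLsd1 24 h replicates 1 or 2 or siC 48 h replicates 2 or 3) and 12 and 7 (siLsd1 48 h replicate 3). For the IGF list, leaving out 1 array gave counts higher and lower of 2 and 3 (siC 24 h replicate 1), 2 and 2 (siC 24 h replicate 2) and 10 and 6 (siLsd1 48 h replicate 3). For the Wnt list, leaving out 1 array gave counts higher and lower of 0 and 0 (siC 24 h replicates 1 or 2), 1 and 1 (siLsd1 48 h replicate 2) and 6 and 4 (siLsd1 48 h replicate 3). The calls of Bmp1 and Pappa did not hold without siC 24 h replicate 2 (adjusted p up to 0.054 and 0.071, in that order). The calls of Reck and Rspo3 did not hold without any 1 of siC 24 h replicates 1 and 2 (adjusted p up to 0.1 and 0.083, in that order). Igfbp4 had another probe set of opposite sign, at -1.08 on the log2 scale, with means below the dim level (7.5 units at 24 h and 4.1 at 48 h). Its remaining probe sets were called higher.

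Most genes of amino acid supply fell, and other stress responses had calls in both directions. Of 34 genes of the ATF4 and amino acid response, 1 was higher and 24 lower (median -0.79), and 14 falls held whichever array was left out. Cth, which makes cysteine, stood at 637 and 645 at 24 h and 147, 164 and 162 at 48 h (log2 change -2.03 ± 0.37 (SE), 4.07-fold lower, adjusted p = 0.0036). Mthfd2, of mitochondrial folate metabolism, stood at 2032 and 1542 at 24 h and 497, 515 and 418 at 48 h (log2 change -1.90 ± 0.25 (SE), 3.73-fold lower, adjusted p = 0.00066). Slc7a5, a transporter of large amino acids, stood at 2003 and 1912 at 24 h and 713, 659 and 665 at 48 h (log2 change -1.53 ± 0.13 (SE), 2.89-fold lower, adjusted p = 7.7e-05). Psat1, of serine synthesis, was 2.77-fold lower, adjusted p = 0.00024, and Chac1, which breaks down glutathione, was 3.03-fold lower, adjusted p = 0.0013. Atf4 itself, named after its values were seen, stood at 5157 and 4232 at 24 h and 3663, 3331 and 3170.0 at 48 h (log2 change -0.47 ± 0.16 (SE), adjusted p = 0.064). Of 25 ER chaperones and genes of the unfolded protein response, 3 were higher and 5 lower (median -0.05). Xbp1, a factor of that response, was 1.60-fold higher, adjusted p = 0.00077, and Herpud1, of ER-associated degradation, was 1.44-fold lower, adjusted p = 0.00099. Of 31 NRF2 targets and glutathione genes, 5 were higher and 6 lower (median -0.09), among them Nqo1, a quinone reductase (1.72-fold lower, adjusted p = 0.0054). For the ATF4 list, leaving out 1 array gave counts higher and lower of 0 and 15 (siC 24 h replicate 1). For the ER chaperone list, leaving out 1 array gave counts higher and lower of 1 and 4 (siC 24 h replicate 1), 2 and 3 (siC 24 h replicate 2) and 3 and 3 (siC 48 h replicate 2). For the NRF2 list, leaving out 1 array gave counts higher and lower of 2 and 2 (siC 24 h replicate 1), 0 and 1 (siC 24 h replicate 2) and 3 and 3 (siC 48 h replicates 1 or 2). Other NRF2 counts were 3 and 4 (siC 48 h replicate 3) and 7 and 10 (siLsd1 48 h replicate 3). 

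Some lysosomal genes rose, most by modest amounts. Of 34 genes of lysosome and autophagy, 15 were higher and 0 lower (median 0.19), 7 of them whichever array was left out. Ctsa, cathepsin A, stood at 2201 and 2074 at 24 h and 3268, 3325 and 3156 at 48 h (log2 change 0.60 ± 0.08 (SE), 1.52-fold higher, adjusted p = 0.00083), and Mcoln1, a calcium channel of the lysosome, at 605 and 578 at 24 h and 937, 904 and 908 at 48 h (log2 change 0.63 ± 0.08 (SE), 1.55-fold higher, adjusted p = 0.00066). Ctsf, cathepsin F, stood at 59.6 and 62.1 at 24 h and 161, 163 and 143 at 48 h (log2 change 1.35 ± 0.23 (SE), 2.56-fold higher, adjusted p = 0.0024), the only one of the 15 over 2-fold. Metal genes numbered 17, of which 2 were higher and 5 lower (median -0.12). Slc30a1, the zinc exporter induced by zinc, stood at 614 and 562 at 24 h and 162, 133 and 121 at 48 h (log2 change -2.10 ± 0.36 (SE), 4.27-fold lower, adjusted p = 0.0028), and Mt2, a metallothionein, at 2506 and 2308 at 24 h and 727, 696 and 713 at 48 h (log2 change -1.76 ± 0.44 (SE), 3.38-fold lower, adjusted p = 0.016). Tfrc, the transferrin receptor, was 1.74-fold lower, adjusted p = 0.016. For the lysosome list, leaving out 1 array gave counts higher and lower of 8 and 0 (siC 24 h replicates 1 or 2), 12 and 1 (siC 48 h replicate 3) and 18 and 4 (siLsd1 48 h replicate 3). For the metal list, leaving out 1 array gave counts higher and lower of 1 and 2 (siC 24 h replicate 1), 2 and 2 (siC 24 h replicate 2) and 1 and 4 (siC 48 h replicate 1). Other metal counts were 1 and 5 (siC 48 h replicate 2) and 4 and 7 (siLsd1 48 h replicate 3). The call of Mt2 did not hold without any 1 of siC 24 h replicates 1 and 2 (adjusted p up to 0.1). The call of Tfrc did not hold without any 1 of siC 24 h replicates 1 and 2 and siC 48 h replicate 1 (adjusted p up to 0.091). Ctsf had another probe set of opposite sign, at -0.04 on the log2 scale, with means below the dim level (12.4 units at 24 h and 12.1 at 48 h).

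The remaining lists held at most 6 calls each. Of 18 clock genes, 3 were higher and 3 lower, with Nfil3 the largest fall (2.41-fold lower, adjusted p = 0.00051) and Per1 called higher (1.41-fold higher, adjusted p = 0.019). Of 19 Hox genes, 2 were higher and 0 lower, of which Hoxd9 was 1.56-fold higher, adjusted p = 0.023. Subunits of LSD1 complexes numbered 22, of which 0 were higher and 2 lower: Snai2, a repressor that recruits LSD1, stood at 3854 and 3794 at 24 h and 2581, 2921 and 2934 at 48 h (log2 change -0.45 ± 0.07 (SE), 1.36-fold lower, adjusted p = 0.0019), and Hdac1 was 1.22-fold lower, adjusted p = 0.018. Of 15 genes of the RNA interference machinery 3 were higher and 0 lower, among them Tnrc6a, a partner of Argonaute (1.47-fold higher, adjusted p = 0.003). Of 11 macrophage genes, Lyz2 was 2.04-fold lower, adjusted p = 0.044 and Aif1 was 1.52-fold higher, adjusted p = 0.044. None of 3 lymphocyte, 6 endothelial, 4 epithelial or 7 neural genes was called, and of 9 bone, cartilage and muscle genes Tnnt2 was 3.99-fold lower, adjusted p = 0.00012. For the clock list, leaving out 1 array gave counts higher and lower of 0 and 3 (siC 24 h replicate 1) and 1 and 1 (siC 24 h replicate 2). For the Hox list, leaving out 1 array gave counts higher and lower of 1 and 0 (siC 24 h replicate 1 or siC 48 h replicate 2), 0 and 0 (siC 24 h replicate 2 or siC 48 h replicate 3) and 2 and 1 (siC 48 h replicate 1). Other Hox counts were 4 and 0 (siLsd1 48 h replicate 3). For the LSD1 complex list, leaving out 1 array gave counts higher and lower of 0 and 1 (siC 24 h replicates 1 or 2), 1 and 1 (siC 48 h replicate 1) and 3 and 4 (siLsd1 48 h replicate 3). For the RNA interference list, leaving out 1 array gave counts higher and lower of 1 and 0 (siC 24 h replicates 1 or 2 or siC 48 h replicate 2) and 5 and 2 (siLsd1 48 h replicate 3). For the endothelial list, leaving out 1 array gave counts higher and lower of 0 and 1 (siC 24 h replicate 2). For the epithelial list, leaving out 1 array gave counts higher and lower of 1 and 0 (siLsd1 48 h replicates 1 or 3). For the bone, cartilage and muscle list, leaving out 1 array gave counts higher and lower of 0 and 2 (siLsd1 48 h replicate 3). The calls of Per1 and Hdac1 did not hold without any 1 of siC 24 h replicates 1 and 2 and siC 48 h replicate 1 (adjusted p up to 0.12 and 0.14, in that order). The call of Hoxd9 did not hold without any 1 of siC 24 h replicates 1 and 2 and siC 48 h replicates 2 and 3 (adjusted p up to 0.15). The call of Lyz2 did not hold without any 1 of siC 24 h replicates 1 and 2, siLsd1 24 h replicates 1 and 2 and siC 48 h replicates 1, 2 and 3 (adjusted p up to 0.18). The call of Aif1 did not hold without any 1 of siC 24 h replicates 1 and 2, siC 48 h replicates 1, 2 and 3 and siLsd1 48 h replicates 1 and 2 (adjusted p up to 0.25). Tnnt2 had another probe set of opposite sign, at 0.69 on the log2 scale, with means below the dim level (6.1 units at 24 h and 8.8 at 48 h).

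The 15 largest rises were spread over genes of varied kinds. Tbx6, a T-box factor of early mesoderm, stood at 11.6 and 7.63 at 24 h and 122, 134 and 115 at 48 h (6.71-fold higher with intensities under 18.4 raised to that level, adjusted p = 0.00014). Col27a1, a fibrillar collagen of cartilage, stood at 90.2 and 92.1 at 24 h and 856, 956 and 916 at 48 h (log2 change 3.32 ± 0.98 (SE), 9.96-fold higher, adjusted p = 0.033). Tbx6 rose out of the dim range, whereas Col27a1 was well above it at both times. Hoxd3os1, a transcript antisense to Hoxd3, stood at 51.3 and 35.3 at 24 h and 265, 334 and 218 at 48 h (log2 change 2.66 ± 0.30 (SE), 6.30-fold higher, adjusted p = 0.00028). Ager, the receptor for glycation end products, stood at 39.2 and 38 at 24 h and 179.8, 194 and 178 at 48 h (log2 change 2.25 ± 0.22 (SE), 4.76-fold higher, adjusted p = 0.00014), and Lgals4, a galectin, at 55.1 and 60.4 at 24 h and 233, 294 and 278 at 48 h (log2 change 2.21 ± 0.23 (SE), 4.63-fold higher, adjusted p = 0.00018). Cfp, properdin, a stabiliser of the alternative complement pathway, was 4.25-fold higher, adjusted p = 0.00021. Of the 15 largest rises the others were Apoe, given above, Sycp2, Robo3, Mss51, Ypel4, Trpc2, Hypk and Leng8, at 4.12-fold (Leng8) to 5.52-fold (Sycp2), and Gdpd3, at 2.75-fold with intensities under 18.4 raised to that level. The call of Ypel4 did not hold without siC 24 h replicate 1 (adjusted p up to 0.079). The call of Sycp2 did not hold without any 1 of siC 24 h replicates 1 and 2 and siC 48 h replicates 2 and 3 (adjusted p up to 0.14). The call of Col27a1 did not hold without any 1 of siC 24 h replicates 1 and 2, siLsd1 24 h replicates 1 and 2 and siC 48 h replicates 1, 2 and 3 (adjusted p up to 0.15). Robo3 had another probe set of opposite sign, at -0.52 on the log2 scale, with means near the dim level (19.6 units at 24 h and 13.7 at 48 h). The other probe sets of Ager and Hoxd3os1 were not called, at 0.20 and 0.36 on the log2 scale (limma, adjusted p = 0.55 and 0.34). Those of Col27a1 and Trpc2 were called higher.

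Whether the time change of control cells differed from that of siLsd1 cells was tested as a difference of differences, in which no array serves both time changes. With all 10 arrays, limma called 0 of 13644 genes (0.0%), and 896 had an unadjusted p under 0.05 (6.57%). With array weights 434 were called, and with low intensities raised to the dim level 3. Without siLsd1 48 h replicate 3, 201 genes were called (1.47%), of which 147 had the higher time change in siLsd1 cells and 54 the lower. The median change of G2 and mitosis genes was -2.31 in control cells and -1.27 in siLsd1 cells, or -1.51 without that array, and 15 of its 42 genes were then among the 201, all with the smaller fall in siLsd1 cells. Cenpf, a kinetochore protein, stood on the siLsd1 arrays at 50.1 and 70.2 at 24 h and 25.8, 26.4 and 38.8 at 48 h. Control cells held it at 210.4 and 203 at 24 h and 25, 24.7 and 36.2 at 48 h. At 24 h the siLsd1 arrays lay below the control arrays, and at 48 h the arrays of both siRNAs overlapped. Its change was -2.88 in control cells and -1.18 in siLsd1 cells without the array that stands apart (difference 1.69 ± 0.32 (SE), adjusted p = 0.031). Nek2, a centrosomal kinase, gave a difference of 1.49 ± 0.31 (SE), adjusted p = 0.044, and Cenpe, a kinetochore motor, of 1.19 ± 0.22 (SE), adjusted p = 0.028.

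Genes of the interferon and cytokine lists differed in both directions. Cxcl10 stood at 7613 and 7022 at 24 h and 3299.6, 2862 and 3834 at 48 h on siLsd1 arrays, with a change of -1.25 without replicate 3 against -2.46 in control cells (difference 1.21 ± 0.20 (SE), adjusted p = 0.017). Nlrc5 stood on siLsd1 arrays at 931 and 831 at 24 h and 664, 639 and 607 at 48 h (difference 0.95 ± 0.14 (SE), adjusted p = 0.011). Ccl4, a chemokine, was below the dim level on every control array, at 13.4 and 10.2 at 24 h and 15.3, 13.1 and 15.1 at 48 h, and stood at 145 and 125 at 24 h and 23.9, 24.1 and 28.8 at 48 h on siLsd1 arrays. Its control values give no measured change, so no difference is given for it. Ccl5, another chemokine, was not called over time in control cells, at 1085 and 1063 at 24 h and 1100.4, 958 and 967 at 48 h, and stood at 6099.5 and 4399 at 24 h and 1529, 1575 and 3512 at 48 h on siLsd1 arrays (difference -1.65 ± 0.17 (SE), adjusted p = 0.0034). The calls of these differences need that array left out. With all 10 arrays their adjusted p were 0.44 (Cenpf), 0.45 (Nek2), 0.44 (Cenpe), 0.44 (Cxcl10), 0.44 (Nlrc5) and 0.61 (Ccl5). 

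**Figure D5:**
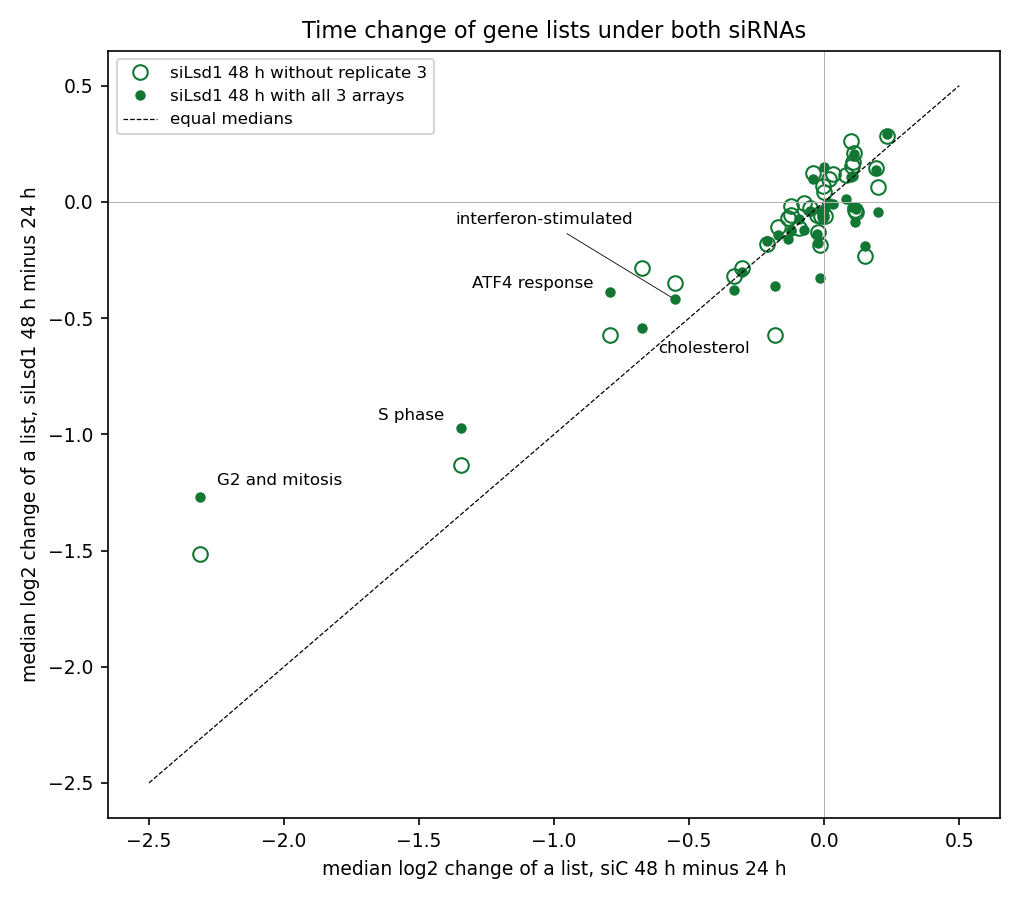
Each point is a gene list with 15 or more genes tested, placed by its median log2 change from 24 h to 48 h in siC cells (horizontal) and in siLsd1 cells (vertical), with all siLsd1 arrays (filled) or without siLsd1 48 h replicate 3 (open), and the dashed line marks equal medians. G2 and mitosis lies at -2.31 in siC cells and at -1.27 or -1.51 in siLsd1 cells.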

How the data were processed

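RNA of 10 samples was measured on 10 Affymetrix arrays. The authors deposited 1 intensity per probe set and array in a table of 45037 probe sets, and the range of the values is that of a linear scale. Summarisation, background correction and normalization are not given in the sources used here. No value was at or below 0. No depth applies to arrays, and their number limits the precision.

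Probe sets were named from the platform annotation: 34945 had 1 symbol, 932 several and 9160 none, and only the first were used. Each of 18193 symbols was represented by its probe set of highest mean on the 10 arrays, and the 25% of genes with the lowest means (4549) were left out. On log2 of the deposited intensity, limma (3.58.1 in R 4.3.3) fitted the means of 4 groups (lmFit, then eBayes with a trend on intensity; 6 residual degrees of freedom), and p-values were adjusted by Benjamini-Hochberg over 13644 genes, called under 0.05. Adjusted p in the text are from this fit or, where an array is said to be left out, from the same fit without it. Calls and adjusted p of other probe sets of a gene are the exception. They are from a fit of all probe sets above the dim level, adjusted over those probe sets. Folds are ratios of group means on the log2 scale; where a group mean was under the dim level of 18.4, the fold was computed with lower intensities raised to it. SE is that of the fit, with n = 2 and 3 arrays. Python 3.11.15 with pandas 2.3.3 made the summaries.

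The members, gene lists and tests were chosen with earlier results of these data known. Genes were named by rule: the 15 largest rises and falls among called genes whose arrays do not overlap (1 uncharacterised symbol passed over), up to 6 called genes per list and direction, the largest interaction differences, and 11 genes whatever their values; others are said to be chosen after their values were seen, and a choice was made among these 305 genes. Lists were counted and not tested.

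On simulated data for 13644 genes, 50 genes were made to change at each size given here, and the others were left unchanged. This comparison called 20% of genes made to change by 0.5 (log2), 68% at 1, 88% at 2 and 96% at 3, and 0.0223% of unchanged genes. In the deposited data 3302 genes were called (24.2%), and recovery with so many changed genes was not tested. Alternatives were other scalings, filters, probe set rules and fits, and each array left out in turn. Promoter windows of the assembly GRCm38.p6 came from RefSeq, and genes with several windows were not used.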

Additional observations from a re-analysis of the deposited data

How the results depend on the processing

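Leaving out 1 array at a time gave 1482 to 5510 genes called, 658 to 2878 of them higher and 815 to 2632 lower, and 0 to 201 differences between the time changes. Testing all probe sets called 5563 probe sets, 2770 higher and 2793 lower. Array weights gave 6192 calls, 3324 higher and 2868 lower, and 434 differences between the time changes. The siC arrays fitted alone gave 4717 calls, 2474 higher and 2243 lower. These included 3264 of the 3302 main calls in the same direction, and all 277 called named genes. Chosen after seeing the data, a fit without siLsd1 48 h replicate 3 and with low intensities raised gave 5512 calls, 2879 higher and 2633 lower. Differences between the time changes numbered 1 with probe sets averaged per gene, 1 with no intensity trend, 3 with 16 added to each intensity and 3 with low intensities raised.

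Deviations of same-numbered siC arrays from their group means correlated at 0.76 and 0.098, and those of siC 24 h replicate 2 and siC 48 h replicate 3 at 0.79. The 2 siC 24 h arrays deviate from their mean by equal amounts in opposite directions, so these correlations are not independent of each other. The same-numbered siC arrays also share an end digit of their sample codes, and no label says what a number or code marks, so neither was used to pair arrays in the main comparison. With the replicate block by number, 3697 genes were called, 1816 higher and 1881 lower, and 0 differences between the time changes. The replicate block by sample code gave 5182, 2541 higher and 2641 lower, and 27 differences. Under the replicate block by number the lists of G2 and mitosis, S phase, interferon-stimulated, cholesterol and ATF4 genes had 41, 39, 31, 14 and 25 genes lower and lysosome 15 higher, and by sample code 42, 41, 37, 17 and 26 lower and 16 higher. Of 277 called named genes, 17 missed the threshold with the block by number and 3 with the block by code, and none reversed.

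With 1 array left out, these lists had 39 to 42, 35 to 41, 26 to 38, 10 to 17 and 15 to 27 genes lower, and 8 to 18 higher for lysosome. Over all probe sets the counts were 63, 65, 49, 24 and 42 lower and 24 higher, and with probe sets averaged cholesterol had 7. Averaging also turned the sign of Mdm2 (0.33), Adipor2 (-0.17), Dlk1 (0.48), Grb14 (0.24), Acta2 (0.022), Steap3 (-0.043) and Slc39a14 (-0.046), and 58 of the 277 missed the threshold. No other setting reversed a named gene; 38 missed it with no intensity trend, 19 with centred arrays, 18 with no filter and 10 with quantile normalization. The cause of these changes was not tested. Signal over background limits genes near 18.4 units.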

Other observations

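Gene families chosen after their values were seen are given here as counts, with no test of a family. Some of their members also belong to the lists above. Of 13 condensin and cohesin genes 8 were called lower and 0 higher (median -0.47), beside 12.2% of all genes called lower. Ncapg, a subunit of condensin, stood at 494 and 533 intensity units at 24 h and 87.5, 115 and 113 at 48 h, which is 4.91-fold lower (limma, adjusted p = 7.5e-05). Smc2, the condensin ATPase, was 4.34-fold lower (adjusted p = 0.0001), and Ncaph 4.47-fold lower (adjusted p = 2.2e-05). Of 17 nucleoporins 11 were lower and 0 higher (median -0.52), led by Nup93 of the inner ring, which stood at 710.2 and 704 at 24 h and 301, 310.1 and 339 at 48 h (2.24-fold lower, adjusted p = 0.00081). Of 10 Fanconi anaemia genes, which repair crosslinked DNA, 4 were lower, among them Fancd2 at 101 and 92.7 at 24 h and 42.3, 32.1 and 36.7 at 48 h (2.62-fold lower, adjusted p = 0.0046). Of 10 tubulins 6 were lower, and Tubb6 was 2.33-fold lower (adjusted p = 0.0033). Of 38 proteasome subunits 15 were lower and 0 higher (median -0.26), and without siLsd1 48 h replicate 3 the counts were 24 lower and 2 higher. The deepest falls were those of Psmb9 (2.43-fold), Psmb10 (1.87-fold) and Psmb8 (1.73-fold), which were already counted in the class I presentation list.

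Of 308 zinc finger genes of the Zfp series, 68 were higher, 13 lower and 227 not called (median 0.19), beside 12.0% of all genes called higher, and without siLsd1 48 h replicate 3 the counts were 104 and 29. Zfp874b stood at 28.2 and 44.0 at 24 h and 101, 110 and 99.8 at 48 h (2.94-fold higher, limma adjusted p = 0.00083), while Zfp367 stood at 480 and 559 at 24 h and 171, 216 and 219 at 48 h (2.58-fold lower, adjusted p = 0.00035). Of 4 CDC-like kinases, which phosphorylate splicing factors, 3 were called higher. Clk1 stood at 1129 and 1058 at 24 h and 2128, 2472 and 2309.7 at 48 h (log2 change 1.07 ± 0.08 (SE), 2.10-fold higher, adjusted p = 5.4e-05), Clk2 was 1.88-fold higher, adjusted p = 0.00067, Clk4 was 1.59-fold higher, adjusted p = 0.00055, and Clk3 had a log2 change of 0.08 (adjusted p = 0.53). The nuclear RNA Neat1, the scaffold of paraspeckles, stood at 863 and 957 at 24 h and 3130.3, 3626 and 3515 at 48 h (log2 change 1.91 ± 0.12 (SE), 3.76-fold higher, adjusted p = 2.2e-05), and Malat1, its neighbour in the genome and a nuclear speckle RNA, stood at 3687 and 1028 at 24 h and 8883, 9097 and 2283 at 48 h (log2 change 1.55 ± 0.68 (SE), adjusted p = 0.13). The 6 other probe sets of Malat1 were higher as well, and 3 of them were called.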
